A study of Mus musculus with 12 samples.

Results

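The comparison set the 2 synapse libraries of day 6, 1 from the arm C and 1 from the arm L, against the 4 synapse libraries of days 1 and 20, again 1 of each arm per day. These are 6 of the 12 libraries of a study of hippocampal mRNA in C57BL6/J mice, and the other 6 are homogenates of day 6, 3 per arm. The file headers name the C libraries control and the L libraries learned on day 6, and give just a C or a T and the day on days 1 and 20, where T was taken as the arm L. The labels do not give the animals' age or sex, what the training was, how the synapse fraction was prepared, or how many animals a library holds. Arms were pooled, so the comparison asks how the day 6 pair differs from the other pairs. Among the synapse columns, just those of day 6 also carry the word Input, which the columns of the 6 homogenates of day 6 carry as well. Day and preparation therefore cannot be told apart, and every difference below is one between these libraries. The p-values measure the spread between them, which may be technical.

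Proteins that are secreted or span a membrane are made on ribosomes bound to the endoplasmic reticulum. A hydrophobic stretch of the growing chain, either a signal sequence at its start or the first membrane-spanning segment, brings the ribosome with its mRNA to that membrane, whereas the mRNAs of cytosolic and nuclear proteins are read by free ribosomes. Synapses contain both kinds of product, since receptors, channels and adhesion molecules enter the membrane through this route and scaffolds and most kinases do not. Neuronal endoplasmic reticulum reaches into dendrites and axons, and mRNAs of both kinds have been found there.

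The day 6 libraries stood apart from the rest before any gene was tested. They held 1.53e+07 and 1.17e+07 counts, against 1.06e+07 to 1.33e+07 on days 1 and 20. On a principal component plot of log2 levels, the first axis (59.0% of the variance) separated day 6 (105.8 and 51.7) from the other 4 libraries (-40.6 to -37.2), and the second (33.6%) separated the 2 day 6 libraries from each other (56.2 and -89.5). The L over C ratios of genes with at least 10 CPM (counts relative to the library's total, scaled with TMM) had a median absolute deviation of 0.298 on day 6, against 0.110 on day 1 and 0.107 on day 20, on the log2 scale. Among genes with 1 to 20 counts, an even count was found for 56.2% and 61.4% of genes on day 6, 43.0% to 44.8% on days 1 and 20 and 43.5% to 49.5% in the homogenates. Whether a day 6 count stands for a read or for a read pair is not given in the sources used here, and where both reads of a pair were counted, intervals from counts are too narrow. Of 2197 genes with 1 to 5 CPM on days 1 and 20, 328 and 221 were at 0 in the C and the L library of day 6, and 0 in any other synapse library. The part of these properties in the results below was not tested.

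Of 13363 genes tested with edgeR's quasi-likelihood test, 3002 were higher on day 6 (22.5%) and 2748 were lower (20.6%), together 43.0%, at a Benjamini-Hochberg adjusted p under 0.05. At least a 2-fold change was reached by 1701 of the higher and 1042 of the lower genes. Both day 6 libraries lay above the other 4 for 3718 genes and below them for 4150, together 58.9% of those tested. In a fit of the same 6 libraries by day, 4118 genes passed against day 1 alone (30.8%), 4004 against day 20 alone (30.0%), and 3766 passed against both in the same direction, the same day 6 libraries serving each time. Day 20 against day 1 gave 0 calls in edgeR in the same fit (15 genes at an unadjusted p under 0.05), and 0 in a fit of those 4 libraries alone (380 at an unadjusted p under 0.05). Without the C library of day 6 the counts were 4075 higher and 4485 lower, and without the L library 4397 and 4972, where the lone day 6 library is assumed to vary like the others. Scaled to library totals alone, 1722 genes passed as higher and 5966 as lower, 22.4% of calls being higher, and the median of all genes moved from -0.04 to -0.55.

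The mRNAs that were higher on day 6 were mainly those of membrane and secreted proteins. Genes were classed by the cellular component terms in the deposited tables, with a mitochondrial term taking precedence over a membrane term, and a membrane over a secreted term, and the classes were chosen after their values were seen. Of 2739 genes annotated as integral or anchored in a membrane, 1593 were called higher (58.2%, against 22.5% of all genes) and 155 lower, with a median log2 difference of 0.85. Of 787 genes with an extracellular term, 301 were higher and 87 lower, with a median of 0.46 (0.29 without the C library of day 6). Of the 7796 genes with other terms, 780 were higher and 2056 lower, with a median of -0.23, and of 1401 genes with a mitochondrial term 199 were higher and 344 lower, with a median of -0.18.

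Both day 6 libraries showed this order by themselves. Relative to the mean of days 1 and 20, the median membrane gene stood at 0.90 in the C library and 0.76 in the L library of day 6, and between -0.04 and 0.04 in the other 4. Genes with other terms stood at -0.27 and -0.22 on day 6 and between -0.01 and 0.01 elsewhere. With library totals as the only scaling, the membrane median was 0.33 and that of the other genes -0.74, while the secreted median turned to -0.06, all set against a median of -0.55 over all genes. The day 6 homogenates, set against the same 4 synapse libraries, had the opposite order, with medians of -0.52 for membrane, -0.60 for secreted and 0.16 for other genes. They were deposited in another table and share the 4 libraries with the main comparison.

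**Figure D1:**
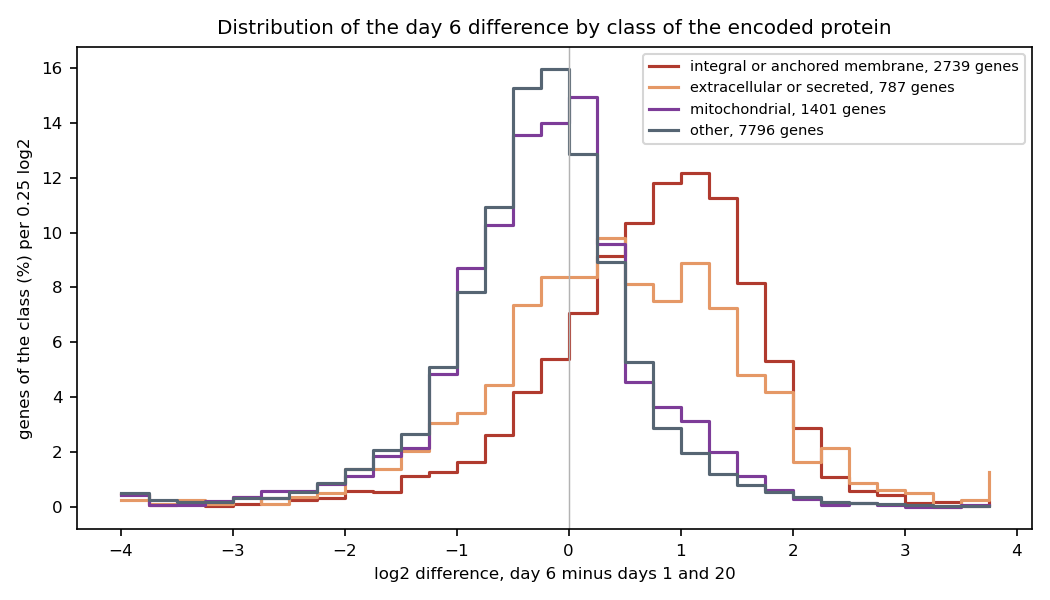
Share of genes per 0.25 log2 step (y axis, %) against the log2 difference of day 6 from days 1 and 20 (x axis), for 4 classes of encoded protein, with values beyond 4 put in the end steps. The curve of 2739 membrane genes is shifted to the right (median 0.85) and that of 787 secreted genes is broad (median 0.46). The curve of mitochondrial genes (median -0.18) peaks just right of 0, and that of other genes (median -0.23) just left of 0.

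Within the annotated compartments the same division ran through organelles and synaptic structures. Over all genes tested, 22.5% were called higher and 20.6% lower. Genes of the endoplasmic reticulum were called higher in 519 of 1003 cases (51.7%) and lower in 111 (11.1%, median 0.64). Lysosomal genes were higher in 115 (45.3%) and lower in 27 (10.6%) of 254 cases (median 0.50). Genes of the nucleus were called higher in 515 (11.6%) and lower in 1162 (26.1%) of 4451 cases (median -0.21), the share lower being near that of all genes. Those of microtubules were higher in 25 (9.7%) and lower in 92 (35.8%) of 257 (median -0.27). Those of the cytosol were higher in 131 (12.4%) and lower in 316 (30.0%) of 1053 (median -0.25). The postsynaptic membrane had 100 higher (49.8%) and 47 lower (23.4%) of 201 genes (median 0.54). The postsynaptic density beneath it had 62 higher (30.5%) and 69 lower (34.0%) of 203 (median -0.04). Synaptic vesicle genes were split, with 36 higher (32.7%) and 33 lower (30.0%) of 110 (median 0.00).

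The coding sequence carried the same division. In the genetic code every codon with T (U in the mRNA) at its second position stands for a hydrophobic residue, so a run of such codons marks a membrane-spanning segment or a signal sequence. For each gene the window of 20 codons with the most such codons was taken from its longest coding sequence in GENCODE M21 (GRCm38, called mm10 in the processing notes). Printed below from 5′ to 3′ are windows of 4 genes in each direction, picked among those with a small p, and of 2 secreted proteins among the 12 highest genes. The printed windows lie in 1 exon, with each T at a second codon position in capitals.
Unc5c (netrin receptor, higher, codons 400 to 419, chr3:141788903-141788962, plus strand): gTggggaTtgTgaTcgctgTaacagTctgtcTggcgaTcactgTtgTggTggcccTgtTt
Grm5 (metabotropic glutamate receptor, higher, codons 693 to 712, chr7:88074580-88074639, plus strand): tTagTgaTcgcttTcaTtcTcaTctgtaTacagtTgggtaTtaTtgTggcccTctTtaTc
Cnr1 (cannabinoid receptor, higher, codons 346 to 365, chr4:33944649-33944708, plus strand): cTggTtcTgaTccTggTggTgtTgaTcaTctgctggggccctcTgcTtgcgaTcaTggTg
Kcnj3 (potassium channel, higher, codons 158 to 177, chr2:55437672-55437731, plus strand): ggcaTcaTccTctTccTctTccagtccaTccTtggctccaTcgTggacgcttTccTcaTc
Grem1 (secreted BMP antagonist, higher, codons 1 to 20, chr2:113750095-113750154, minus strand): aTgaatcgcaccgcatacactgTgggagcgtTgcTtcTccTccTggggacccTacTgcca
Apob (liver apolipoprotein, higher, codons 6 to 25, chr12:7977794-7977853, plus strand): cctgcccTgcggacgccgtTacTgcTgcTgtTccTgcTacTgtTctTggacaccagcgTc
Ncdn (neurochondrin, lower, codons 303 to 322, chr4:126750062-126750121, minus strand): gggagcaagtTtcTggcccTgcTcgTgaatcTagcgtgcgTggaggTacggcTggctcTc
Cpne6 (copine, lower, codons 462 to 481, chr14:55516611-55516670, plus strand): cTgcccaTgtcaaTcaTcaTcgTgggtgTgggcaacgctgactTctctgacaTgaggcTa
Dtx3 (deltex family ligase, lower, codons 43 to 62, chr10:127193173-127193232, minus strand): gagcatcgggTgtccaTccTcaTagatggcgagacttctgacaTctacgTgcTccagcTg
Rhob (small GTPase, lower, codons 20 to 39, chr12:8499516-8499575, minus strand): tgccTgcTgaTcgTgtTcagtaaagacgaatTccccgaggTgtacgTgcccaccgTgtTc
The 3 receptors and the channel had 13 to 15 such codons in their window, and the 4 lower genes 8 to 10. Acvr1c among the higher and Mast3 and Ints1 among the lower genes had 12 such codons and are not printed. Mast3 and Ints1 had a smaller p than Rhob, so the gap between the printed genes comes in part from their choice. The windows of the secreted Grem1 and Apob, with 9 and 12, lay at the very start of the coding sequence, where a signal sequence is encoded.

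Across the 13122 tested genes with a coding sequence, the median difference stayed between -0.27 and -0.12 for windows with up to 11 such codons, was 0.15 at 12, 0.71 at 13, and from 0.85 to 0.99 at 14 and more. Of 2311 genes with 13 or more, 1307 were called higher (56.6%, against 22.5% of all genes) and 152 lower (6.6%, against 20.6%), with a median of 0.86. Of 9522 genes with up to 11, 1249 were higher (13.1%) and 2341 lower (24.6%), with a median of -0.18. The gap between these medians was 1.10 and 0.97 in the C and the L library of day 6, 0.02 and -0.04 on day 1 and 0.05 and -0.03 on day 20. The gap over the libraries was 1.04, and it lay between 0.98 and 1.11 under every alternative scaling, filter, tool and left-out library. A change of scaling shifts all genes nearly alike and cancels in this gap, so the scalings could not test it. The feature was chosen after the membrane classes had been seen, and it overlaps them.

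**Figure D2:**
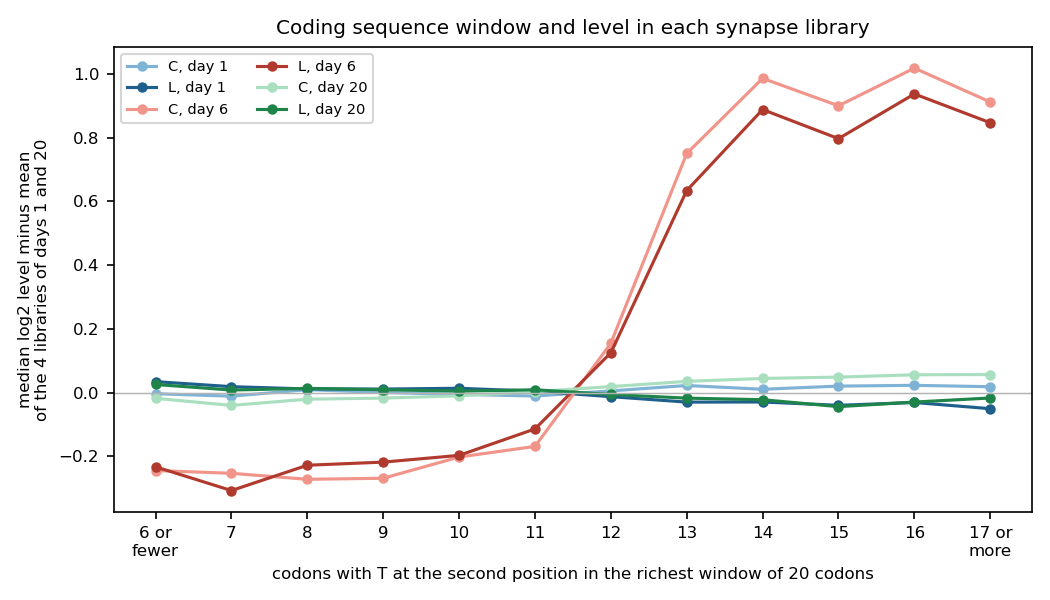
Median log2 level of genes relative to the mean of the 4 libraries of days 1 and 20 (y axis) against the number of codons with T at the second position in the richest window of 20 codons (x axis), 1 line per synapse library. The 2 day 6 lines step up between 11 and 14 codons, to about 1.0 in C and 0.9 in L, and the lines of days 1 and 20 stay within 0.06 of 0.

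The 8 higher genes with the smallest p were all annotated membrane proteins, and each was about 4 to 6 times as abundant on day 6. In each sentence on levels, values are TMM-scaled CPM in the C library and then the L library. Unc5c, a receptor of the guidance cue netrin (ENSMUSG00000059921, chromosome 3, 141465216 to 141834924, plus strand), was at 117 and 114 CPM on day 1, 591 and 544 on day 6 and 115 and 112 on day 20 (log2 difference 2.31, SE 0.06, adjusted p = 3.79e-07, edgeR). Cacna2d1, a subunit that brings calcium channels to the surface (ENSMUSG00000040118, chromosome 5, 15934691 to 16374511, plus strand), was at 459.8 and 445 CPM on day 1, 2391 and 2188 on day 6 and 479 and 478 on day 20 (log2 difference 2.30, SE 0.07, adjusted p = 3.79e-07, edgeR). Acvr1c, a receptor of activin-type ligands, was at 37.1 and 35.4 CPM on day 1, 215 and 209 on day 6 and 35.1 and 38.1 on day 20. In all 3 genes the 2 day 6 libraries lay far above the other 4, which differed little from each other. Cnr1, the cannabinoid receptor that damps transmitter release, was at 312 and 302 CPM on day 1, 1472 and 1348 on day 6 and 324 and 299 on day 20, 4.56-fold higher. The inwardly rectifying potassium channel gene Kcnj3, the cell surface anchored Lsamp and the teneurin Tenm1 rose by log2 differences of 1.93 (SE 0.06), 2.20 (SE 0.07) and 2.13 (SE 0.07), each with an edgeR adjusted p of 3.79e-07.

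The 12 largest rises were taken from genes that averaged 10 CPM or more over the 6 libraries. Alb, Apob, Igf1 and Grem1 were under 10 CPM on days 1 and 20 and reached that mean only through day 6, so these 12 are given as single genes and not as a count. The liver genes Alb and Apob led and are described further on. Igf1, the insulin-like growth factor (ENSMUSG00000020053, chromosome 10, 87858265 to 87937042, plus strand), was at 8.82 and 8.93 CPM on day 1, 57.4 and 60.8 on day 6 and 9.23 and 9.65 on day 20 (log2 difference 2.69, SE 0.12, adjusted p = 7.25e-07, edgeR). Penk, the precursor of the enkephalin peptides, was at 25.4 and 22.3 CPM on day 1, 145 and 104 on day 6 and 20.2 and 22.1 on day 20. Both were more than 4-fold higher in each day 6 library than in any other. Grem1, which blocks bone morphogenetic proteins, was 6.35-fold higher and Rspo2, which strengthens Wnt signalling, 5.49-fold. Ndnf, a secreted factor of a class of interneurons, was 5.42-fold higher. Among the membrane proteins, the sodium, calcium and potassium exchanger Slc24a2 was at 857 and 791 CPM on day 1, 5017 and 4459 on day 6 and 906 and 861 on day 20, the orphan receptor Gpr101 was 5.47-fold higher and the adhesion protein Slitrk4 5.41-fold.

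Genes that were lower with a small p, 7 of which are described here, encode cytosolic, nuclear or mitochondrial proteins or ones that attach to a membrane from the cytosol. Ncdn, a cytosolic regulator of neurite growth (ENSMUSG00000028833, chromosome 4, 126743750 to 126753438, minus strand), was at 913 and 873 CPM on day 1, 267 and 259 on day 6 and 854 and 888 on day 20 (log2 difference -1.75, SE 0.07, adjusted p = 4.8e-07, edgeR). Cpne6, a calcium-dependent lipid-binding copine of excitatory neurons (ENSMUSG00000022212, chromosome 14, 55510445 to 55517431, plus strand), was at 229 and 225 CPM on day 1, 84.9 and 86.1 on day 6 and 224 and 225 on day 20 (log2 difference -1.40, SE 0.07, adjusted p = 9.9e-07, edgeR). In both genes the 2 day 6 libraries were the lowest of the 6. Rhob, a small GTPase, fell 2.87-fold, the kinase Mast3 3.18-fold, the ligase Dtx3 3.03-fold, the mitochondrial glutamate carrier Slc25a22 4.07-fold and Ints1, a subunit of the nuclear Integrator complex, 5.19-fold. In the deposited annotation Ints1 carries a membrane term, Slc25a22 a mitochondrial term, and the other 5 of these 7 genes carry other terms.

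The 12 largest falls were taken under the same limit. Rasd1, Pim3 and Junb were under 10 CPM on day 6 and reached that mean only through days 1 and 20. The falls are therefore also given as single genes and not as a count. Rasd1, a small GTPase that glucocorticoids induce (ENSMUSG00000049892, chromosome 11, 59963181 to 59964944, minus strand), was at 20.6 and 20.2 CPM on day 1, 1.22 and 0.415 on day 6 and 17.8 and 16.8 on day 20 (log2 difference -4.47, SE 0.37, adjusted p = 2.35e-05, edgeR). The kinase Pim3 was at 15.3 and 15.4 CPM on day 1, 1.57 and 0.830 on day 6 and 13.8 and 14.6 on day 20, and Junb, a member of the AP-1 transcription factors, at 27.6 and 16.9 CPM on day 1, 2.35 and 4.26 on day 6 and 20.5 and 25.8 on day 20. All 3 were several-fold lower in both day 6 libraries. Dock6, an exchange factor of small GTPases, fell 5.88-fold, Nckipsd 5.98-fold, the adaptor gene Bcar1 5.81-fold and the endothelial receptor gene Eltd1 5.86-fold. The Myc relative Bmyc had 265 and 216 counts on day 1, 29 and 0 on day 6 and 242 and 186 on day 20, and the endothelial receptor Tek had 200 and 314 counts on day 1, 0 and 49 on day 6 and 198 and 237 on day 20, each with a 0 in 1 day 6 library. The call for Tek ended without any 1 of the 4 libraries of days 1 and 20 (adjusted p from 0.0709 to 0.0963, edgeR). Hist1h4h (11.5-fold lower) has near-identical copies, and Cdr1 (8.45-fold lower) lies opposite an antisense transcript, so their counts are uncertain.

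**Figure D3:**
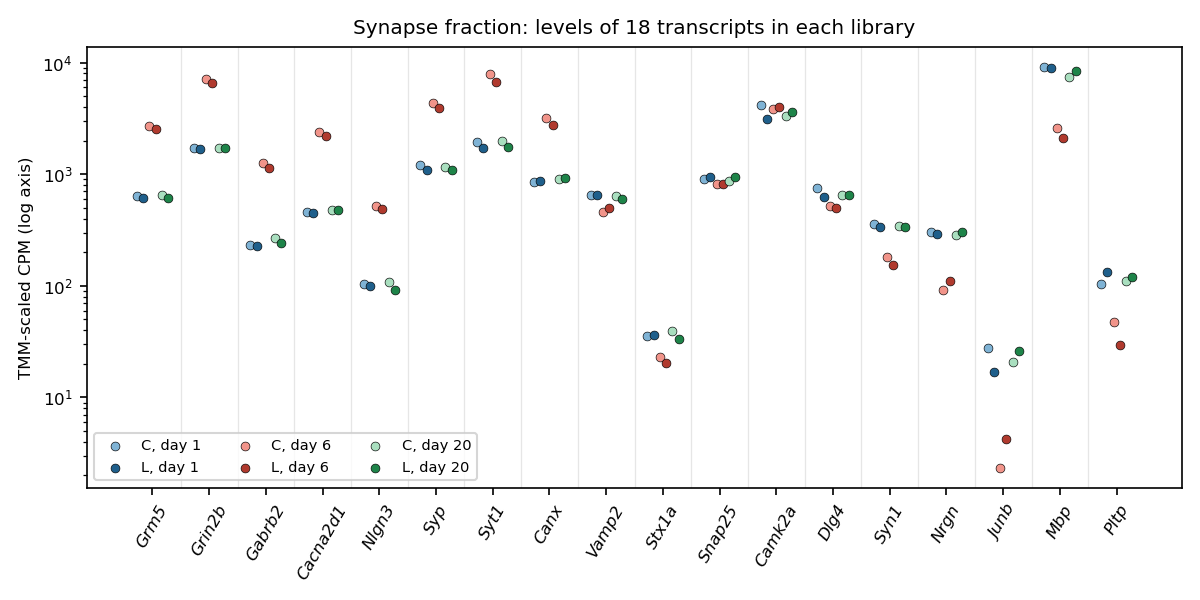
TMM-scaled CPM (y axis, log scale) of 18 transcripts in the 6 synapse libraries, 1 point per library, coloured by arm and day. The day 6 points lie above the rest from Grm5 to Canx, below the rest for Vamp2, Stx1a, Dlg4, Syn1, Nrgn, Junb, Mbp and Pltp, just below the rest for Snap25 and among the rest for Camk2a.

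Receptors for the main transmitters were higher almost throughout. Of 26 glutamate receptor subunits and their membrane partners, 22 were called higher and 1 lower, with a median of 1.29 beside -0.04 over all genes. Grm5, which couples glutamate to calcium release (ENSMUSG00000049583, chromosome 7, 87584168 to 88134907, plus strand), was at 642 and 609 CPM on day 1, 2717 and 2534 on day 6 and 644 and 614 on day 20 (log2 difference 2.07, SE 0.06, adjusted p = 3.79e-07, edgeR). Grin2b, the NMDA receptor subunit, was at 1718 and 1673 CPM on day 1, 7181 and 6513 on day 6 and 1702 and 1715 on day 20 (log2 difference 2.01, SE 0.06, adjusted p = 3.79e-07, edgeR). The AMPA receptor subunit gene Gria3 rose 3.06-fold and the presynaptic receptor gene Grm7 2.62-fold. The exception was Grin2c, at 49.9 and 49.1 CPM on day 1, 20.0 and 37.9 on day 6 and 47.8 and 39.4 on day 20 (log2 difference -0.69, SE 0.24, adjusted p = 0.0433, edgeR). Its call ended without any 1 of the 4 libraries of days 1 and 20 (adjusted p from 0.0583 to 0.115).

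Of 21 genes of GABA signalling, 16 were higher and 2 lower, with a median of 1.44. Gabrb2, a subunit of the chloride channel that GABA opens (ENSMUSG00000007653, chromosome 11, 42419757 to 42629028, plus strand), was at 233 and 227 CPM on day 1, 1254 and 1142 on day 6 and 268 and 242 on day 20 (log2 difference 2.30, SE 0.08, adjusted p = 3.79e-07, edgeR). Both day 6 libraries lay far above the other 4. Gabra4, another subunit, rose 3.26-fold. The 18 members with a membrane or secreted term had 16 rises and 0 falls, and the other 3 had 0 rises and 2 falls. Those that fell were Gad1, the cytosolic enzyme that makes GABA, at 197 and 196 CPM on day 1, 127 and 138 on day 6 and 189.6 and 202 on day 20 (log2 difference -0.56, SE 0.07), and Gphn, the scaffold under inhibitory receptors (log2 difference -0.29, SE 0.08, edgeR adjusted p = 0.0230), whose call ended without any 1 of the 4 libraries of days 1 and 20 (adjusted p from 0.0514 to 0.0701).

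Channels, transporters and adhesion molecules followed the receptors. Voltage-gated potassium channel genes were higher in 27 of 36 cases and lower in 1 (median 1.35), and sodium and calcium channel genes in 19 of 23 and 1 (median 1.41). Among the latter, 6 were not classed as membrane or secreted, and of these 5 were higher and 0 lower. Scn2a1, the sodium channel of axons, was at 828 and 741 CPM on day 1, 4310.2 and 3809 on day 6 and 833 and 754 on day 20 (log2 difference 2.36, SE 0.08, adjusted p = 3.79e-07, edgeR). The potassium channel genes Kcnv1, Kcnc2, Kcna1 and Kcnd2 rose between 3.47-fold for Kcna1 and 4.23-fold for Kcnv1. Cacna1e, which forms a calcium channel pore, rose 4.11-fold and the auxiliary subunit Cacna2d3 3.35-fold.

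Of 25 synaptic adhesion genes 24 were higher and 0 lower (median 1.62). Nlgn3, a neuroligin that binds neurexins across the cleft (ENSMUSG00000031302, chromosome X, 101299168 to 101325963, plus strand), was at 105 and 98.7 CPM on day 1, 522 and 486 on day 6 and 109 and 91.6 on day 20 (log2 difference 2.32, SE 0.08, adjusted p = 3.79e-07, edgeR), and its relative Nlgn1 rose 3.83-fold. Cadm2 was at 518 and 511 CPM on day 1, 2482 and 2126 on day 6 and 519 and 534 on day 20, and the ephrin receptor gene Epha4 rose 4.28-fold. All 32 protocadherin genes tested were higher (median 1.58), of 36 listed, 4 of which the day 6 table did not list. Of the 32, 20 were not classed as membrane or secreted (median 1.67), beside 12 that were (median 1.45). The classes by deposited terms thus miss some membrane proteins. Pcdh17, Pcdh19 and Pcdhb19 rose 3.32-fold, 4.35-fold and 4.69-fold, and members of the clustered families share exons, which makes their single values uncertain. Solute carriers were higher in 124 and lower in 23 of 260 cases (median 0.64), with Slc2a13, Slc39a10 and Slc38a1 up 4.02-fold, 3.51-fold and 3.52-fold. Those with a membrane or secreted term and no mitochondrial term had 107 rises and 6 falls of 196 (median 0.82), and the other 64 had 17 of each (median -0.16).

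The presynaptic release machinery was divided by the kind of protein. Its list had 14 higher and 20 lower of 43 genes tested. Members with a membrane or secreted term had 11 rises and 4 falls of 16 (median 1.52), and the other 27 had 3 rises and 16 falls (median -0.59). Syp, the vesicle membrane protein synaptophysin, was at 1203 and 1079 CPM on day 1, 4343 and 3884 on day 6 and 1152 and 1084 on day 20 (log2 difference 1.86, SE 0.08, adjusted p = 4.86e-07, edgeR). Syt1, the calcium sensor of release, was at 1939 and 1718 CPM on day 1, 7826 and 6681 on day 6 and 1967 and 1758 on day 20 (log2 difference 1.97, SE 0.09, adjusted p = 7.22e-07, edgeR). The vesicle glycoprotein genes Sv2a, Sv2b and Sv2c rose 3.10-fold, 4.15-fold and 4.45-fold. In the other direction, Syn1, the synapsin that coats vesicles from the cytosol, was at 355 and 338 CPM on day 1, 182 and 154 on day 6 and 344 and 333 on day 20 (log2 difference -1.03, SE 0.09, adjusted p = 1.99e-05, edgeR). The vesicle GTPase Rab3a fell 2.12-fold, the dynamin gene Dnm1, whose product pinches off vesicles, 2.08-fold, and the active zone scaffold Bsn 2.13-fold.

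Some SNARE proteins of this list are described here because of their values, and not as support for the division. Vamp2, Vamp1 and Stx1a are held in the membrane by a single segment at their C-terminal end, which enters the membrane only after translation has ended. Vamp2 was at 652 and 654 CPM on day 1, 456 and 493 on day 6 and 640.1 and 599 on day 20 (log2 difference -0.42, SE 0.07, adjusted p = 0.00145, edgeR), Vamp1 stood at a log2 difference of -0.61 (SE 0.10, adjusted p = 0.00154) and Stx1a at -0.75 (SE 0.13, adjusted p = 0.00205). All 3 fell, and the day 6 libraries were the lowest for each. With offsets for GC content Vamp2 and Stx1a lost their calls (log2 differences of -0.03 and -0.26). Snap25, which is attached by lipids, did not pass (log2 difference -0.16, SE 0.06, adjusted p = 0.0679, edgeR). Snap25 passed as lower under 8 alternatives, with log2 differences from -0.15 in DESeq2 to -0.68 with library totals alone, among them GC offsets (-0.43) and the fit without the L library of day 6 (adjusted p = 0.0408).

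Scaffolds and kinases of the postsynaptic density were lower in 20 and higher in 3 of 32 cases (median -0.40, and -0.60 without the L library of day 6), beside 20.6% of all genes called lower. Nrgn, which holds calmodulin, was at 302 and 292 CPM on day 1, 91.1 and 109.5 on day 6 and 286 and 300.1 on day 20 (log2 difference -1.56, SE 0.09, adjusted p = 2.51e-06, edgeR). Dlgap3 was at 328 and 248 CPM on day 1, 106 and 114 on day 6 and 276 and 269 on day 20 (log2 difference -1.35, SE 0.12, adjusted p = 3.29e-05, edgeR), Baiap2 fell 2.42-fold and Cyfip2, a partner of the fragile X protein, 1.59-fold. The scaffold gene Shank3 fell 1.93-fold and Camk2b 1.72-fold, both without a call under GC offsets. Camk2a, an abundant kinase of the density, was at 4145 and 3126 CPM on day 1, 3803 and 4018 on day 6 and 3288 and 3572 on day 20 (log2 difference 0.15, SE 0.11, adjusted p = 0.322, edgeR), with overlapping groups. It was lower by 0.36 with library totals as the only scaling (adjusted p = 0.0174), where the median of all genes was -0.55, and higher by 0.38 with GC offsets (adjusted p = 0.0184). Dlg4, the scaffold PSD-95, was at 744 and 625 CPM on day 1, 515 and 499.8 on day 6 and 651 and 652 on day 20 (log2 difference -0.40, SE 0.08, adjusted p = 0.00496, edgeR), and under GC offsets it did not pass (log2 difference -0.12). The 3 higher genes were Homer2 (0.40, SE 0.09), Cnksr2 (0.36, SE 0.07) and Dlg2 (0.25, SE 0.07, log2 differences). Each of them had a negative sign with library totals as the only scaling, and Dlg2 lost its call without either L library of another day, without the L library of day 6 and without C of day 20 (adjusted p from 0.0522 to 0.0604). With GC offsets Dlg2 (log2 difference 0.0028) and Cnksr2 (0.096) lost their calls as well.

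mRNAs known from dendrites were split, with 9 higher (30%) and 17 lower (56.7%) of 30, beside 22.5% and 20.6% of all genes. Members with a membrane or secreted term had 6 rises and 2 falls of 8. The other 22 had 3 rises and 15 falls. With GC offsets the median of these mRNAs moved from -0.36 to -0.04. Among them Bdnf, the secreted neurotrophin (ENSMUSG00000048482, chromosome 2, 109674700 to 109727007, plus strand), was at 53.1 and 44.5 CPM on day 1, 169 and 155 on day 6 and 51.2 and 46.7 on day 20 (log2 difference 1.73, SE 0.10, adjusted p = 1.76e-06, edgeR). Arc, the cytosolic regulator of AMPA receptor traffic, was at 206 and 99.7 CPM on day 1, 88.6 and 89.7 on day 6 and 133 and 152 on day 20 (log2 difference -0.73, SE 0.24, adjusted p = 0.0410, edgeR). The call for Arc ended without any single library except the L library of day 1 (adjusted p from 0.0594 to 0.307) and under GC offsets (log2 difference -0.19).

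Chaperones of the endoplasmic reticulum rose with the membrane proteins. Of 21 genes of this list 16 were higher and 2 lower (median 1.32). Canx, the membrane-bound chaperone calnexin (ENSMUSG00000020368, chromosome 11, 50293961 to 50325673, minus strand), was at 853 and 871 CPM on day 1, 3194 and 2779 on day 6 and 897 and 916 on day 20 (log2 difference 1.76, SE 0.07, adjusted p = 4.86e-07, edgeR). Hspa5, the main chaperone in the lumen, was at 451 and 534 CPM on day 1, 1829.9 and 1364 on day 6 and 538 and 644 on day 20 (log2 difference 1.56, SE 0.15, adjusted p = 4.99e-05, edgeR), and the disulfide isomerase gene Pdia3 rose 3.33-fold. The stress sensor genes Atf6 and Eif2ak3 rose 2.59-fold and 2.20-fold, and Sel1l, of the pathway that clears misfolded proteins, 2.98-fold. The transcription factors that act downstream of the stress sensors were not called higher. Xbp1 was at 6.58 and 7.04 CPM on day 1, 5.48 and 8.62 on day 6 and 8.22 and 7.13 on day 20 (log2 difference -0.04, SE 0.29, adjusted p = 0.921, edgeR), with overlapping groups. Atf4 (-0.28, SE 0.09) and Ddit3 (-0.89, SE 0.27) were the 2 called lower. Their calls ended without any 1 of the 4 libraries of days 1 and 20 (adjusted p from 0.0825 to 0.100 for Atf4 and from 0.0542 to 0.0850 for Ddit3) and under GC offsets (log2 differences of -0.11 and -0.63). Cytosolic heat shock genes were lower in 7 and higher in 1 of 15 cases (median -0.32), with Dnajb1 down 2.76-fold and their regulator Hsf1 2.95-fold. Cholesterol synthesis enzymes, most of which sit in the same membrane, were higher in 11 and lower in 0 of 20 cases (median 0.34, -0.18 with library totals alone), among them Sc5d (2.54-fold), Sqle (2.51-fold) and the membrane regulator Insig1 (2.05-fold).

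Immediate early genes, which neuronal activity induces within minutes, were lower on day 6 in 23 and higher in 3 of 37 cases tested (median -0.89). These are 62.2% lower and 8.1% higher, beside 20.6% and 22.5% of all genes. Members with a membrane or secreted term were higher in 2 and lower in 0 of 5 cases. The other 32 were higher in 1 and lower in 23. Whether neuronal activity differed was not tested. Fos was at 13.3 and 10.8 CPM on day 1, 0.0870 and 4.15 on day 6 and 9.93 and 16.8 on day 20 (log2 difference -2.62, SE 0.85, adjusted p = 0.0351, edgeR). Egr1 was at 126 and 86.8 CPM on day 1, 74.2 and 44.6 on day 6 and 99.1 and 118 on day 20 (log2 difference -0.85, SE 0.22, adjusted p = 0.0132, edgeR), and Ier5 at 26.7 and 22.3 CPM on day 1, 6.44 and 7.16 on day 6 and 22.5 and 23.7 on day 20. The day 6 libraries were the lowest for each of them. The call for Fos ended without any 1 of the 4 libraries of days 1 and 20 (adjusted p from 0.0739 to 0.105), and that for Egr1 without the L library of day 6 (adjusted p = 0.0507) and under GC offsets (log2 difference -0.45). The 3 that rose were Bdnf, Ptgs2 and Vgf. Ptgs2, the prostaglandin synthase of the endoplasmic reticulum membrane, was at 55.3 and 48.0 CPM on day 1, 221 and 181 on day 6 and 47.3 and 59.5 on day 20 (log2 difference 1.94, SE 0.12, adjusted p = 3.6e-06, edgeR). Vgf, a secreted precursor, stood at a log2 difference of 0.28 (SE 0.09), lost its call without 3 of the other libraries (adjusted p from 0.0795 to 0.102) and was at -0.23 with library totals as the only scaling. Glucocorticoid-induced genes were lower in 12 and higher in 1 of 18 cases (median -0.85). Among them the metallothionein gene Mt1 fell 2.19-fold, Tsc22d3 2.60-fold and the clock gene Per1 2.57-fold, and Arrdc2 had 188 and 73 counts on day 1, 0 and 4 on day 6 and 96 and 86 on day 20.

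Genes of the energy supply differed by where they are encoded. Nuclear-encoded subunits of oxidative phosphorylation were lower in 38 and higher in 5 of 77 cases (median -0.38). Cox8a of complex IV was at 244 and 217 CPM on day 1, 92.3 and 86.3 on day 6 and 213 and 218 on day 20 (log2 difference -1.32, SE 0.09, adjusted p = 4.93e-06, edgeR), Uqcrq of complex III fell 3.77-fold, Uqcc2 3.66-fold and Atp5d of the ATP synthase 2.11-fold. The 6 members with a window of 13 or more codons with T at the second position had 0 rises and 5 falls (median -0.80). The median over all genes with such windows was 0.86. These 6 are few genes, and the reason for their difference was not tested. Of 5 mRNAs transcribed inside mitochondria, 4 were higher and 0 lower (median 0.66). mt-Nd5 was at 5365 and 5258 CPM on day 1, 11479 and 9022 on day 6 and 4724 and 5637 on day 20 (log2 difference 0.97, SE 0.11, adjusted p = 0.000130, edgeR), mt-Nd4 rose 1.58-fold, mt-Nd3 2.96-fold and mt-Co3 1.32-fold, and mt-Nd4l did not pass (-0.06, SE 0.34). The size of these rises, and the sign for mt-Co3, depended on the scaling. The list median was 0.14 with library totals alone, beside -0.55 over all genes. With library totals alone mt-Co3 was at -0.10 and mt-Nd4 lost its call (0.14), and only 1 of the 5 had a GC value, so GC offsets could not be applied to the list. mt-Nd3 lost its call without the C library of day 6 (adjusted p = 0.103), and mt-Co3 without 3 of the other libraries (adjusted p from 0.0506 to 0.0583).

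Gene groups of the nucleus and of protein synthesis and breakdown are given beside the 20.6% of all genes called lower and 22.5% called higher. Replication-dependent histone genes were lower in 17 and higher in 0 of 42 cases tested (40.5%, median -1.21, and -1.93 without the C library of day 6), with 19 more listed ones not in the day 6 table. Hist1h4d was at 34.1 and 35.3 CPM on day 1, 14.3 and 13.7 on day 6 and 35.2 and 35.8 on day 20, but near-identical histone copies make single values uncertain. Proteasome subunits were lower in 16 and higher in 1 of 47 cases (34.0%, median -0.32, and -0.60 without the C library of day 6), with Psmd3 down 1.89-fold. Mitochondrial ribosomal protein genes were lower in 19 and higher in 2 of 71 (26.8% lower, median -0.37, and -0.59 without the L library of day 6). Splicing factors were lower in 9 and higher in 3 of 29 (31.0%, median -0.24, and -0.08 without the L library of day 6), with Hnrnpk down 1.60-fold and Srsf11 2.18-fold. Cytosolic ribosomal protein genes were divided, with 25 lower and 15 higher of 80 (median -0.06, with 0.02 without the L library and -0.28 without the C library of day 6), Rps26 being 2.45-fold and Rps29 1.97-fold lower, both with many processed copies in the genome that make their counts uncertain. Translation initiation factors were lower in 19 and higher in 8 of 53 (median -0.20), with Eif5a at 151 and 143 CPM on day 1, 68.9 and 61.1 on day 6 and 139 and 139 on day 20. Cytoskeletal genes of the axon were lower in 11 and higher in 5 of 21 (median -0.30). In that list the tubulin gene Tubb4a fell 1.87-fold and Ina 1.80-fold, while the large membrane skeleton genes Ank2 and Sptbn1 rose 1.84-fold and 1.54-fold.

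RNA granule regulators were higher in 4 and lower in 13 of 32 cases (40.6% lower, median -0.28). Zinc finger genes of the Zfp family were higher in 27 and lower in 51 of 323 cases (15.8% lower, median -0.12, with -0.03 without the C library and -0.29 without the L library of day 6). Kinesin motors were higher in 5 and lower in 1 of 31 cases (16.1% higher, median 0.14, and 0.02 without the C library of day 6). Genes of the m6A mark (1 and 1 of 15, median -0.16) and interferon-induced genes (1 and 0 of 20, median 0.24, and -0.08 without the C library of day 6) held few calls. Among kinesins Kif5c was at 1042 and 959.6 CPM on day 1, 1975 and 1813 on day 6 and 990.4 and 988 on day 20 (log2 difference 0.93, SE 0.07, adjusted p = 8.15e-06, edgeR). With library totals alone the medians of kinesins and interferon-induced genes were -0.38 and -0.28.

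**Figure D4:**
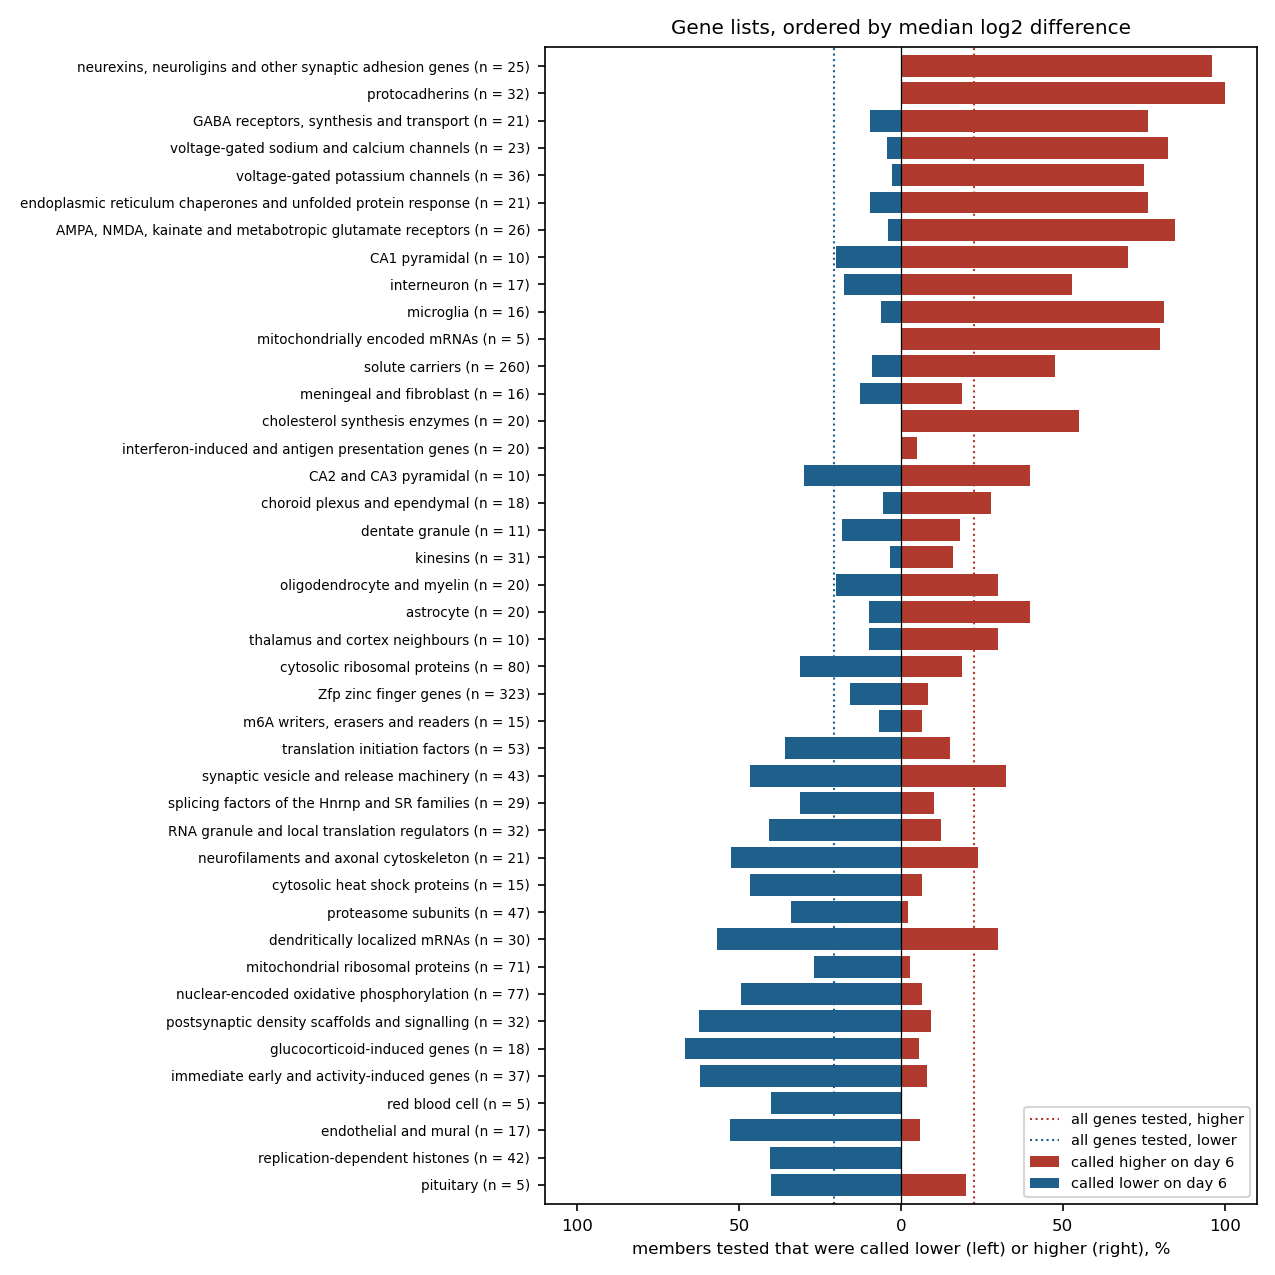
Percent of tested members called higher (bars to the right) or lower (bars to the left) on day 6 at an edgeR adjusted p under 0.05 for 42 gene lists, without the liver list, ordered by their median log2 difference, with dotted lines at the shares of all 13363 genes (22.5% and 20.6%). Adhesion genes, protocadherins (100% of 32 higher), channels and receptors stand at the top, and pituitary, histone, endothelial, immediate early and glucocorticoid-induced genes stand near the foot.

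Markers of glia and vessels moved in different directions. In these bulk fractions, fewer fragments of a cell type and less RNA per fragment cannot be told apart. Microglial markers were higher in 13 and lower in 1 of 16 cases (median 0.80). The summed level of the 18 listed, 2 of which the day 6 table does not list, was 1743 to 2139 CPM on day 6 and 974 to 1134 on days 1 and 20. Members with a membrane or secreted term were higher in 9 and lower in 1 of 12 cases (median 0.73), and the other 4 were all higher (median 1.89). These were Aif1, Siglech, Fcrls and P2ry12, a membrane protein that was classed by its mitochondrial term. Classes follow the deposited terms, so a gene outside the membrane and secreted classes need not encode a cytosolic protein. P2ry12, the purine receptor of resting microglia, was at 72.7 and 77.6 CPM on day 1, 303 and 217 on day 6 and 75.6 and 85.9 on day 20 (log2 difference 1.74, SE 0.13, adjusted p = 1.07e-05, edgeR), and the chemokine receptor gene Cx3cr1, the receptor gene Gpr34 and the integrin gene Itgam rose 2.27-fold, 4.79-fold and 1.72-fold. Endothelial and mural markers were lower in 9 and higher in 1 of 17 cases (median -1.03), membrane proteins included (1 higher and 8 lower of 14). The sum of the 20 listed genes was 433 to 572 CPM on day 6 and 718 to 957 on the other days. The day 6 table does not list 3 of these genes, which add to the other days alone, so part of this drop is built in. Pltp was at 104 and 132 CPM on day 1, 47.0 and 29.4 on day 6 and 109.7 and 119 on day 20 (log2 difference -1.60, SE 0.19, adjusted p = 0.000183, edgeR). Vwf, the clotting factor of vessel walls, was at 45.5 and 82.2 CPM on day 1, 16.4 and 19.1 on day 6 and 65.7 and 70.3 on day 20 (log2 difference -1.89, SE 0.24, adjusted p = 0.000279, edgeR), and the tight junction gene Cldn5 at 10.8 and 17.3 CPM on day 1, 3.13 and 1.45 on day 6 and 13.2 and 13.9 on day 20. The vessel transporter gene Slco1a4 fell 2.04-fold, the receptor gene Flt1 3.72-fold and the pericyte gene Rgs5 2.48-fold. The part of these cells in the other results was not tested.

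Oligodendrocyte genes were divided by the kind of protein. Members with a membrane or secreted term were higher in 6 and lower in 0 of 12 cases, and the other 8 were higher in 0 and lower in 4. Mbp, a cytosolic protein of myelin (ENSMUSG00000041607), was at 9109.9 and 8893 CPM on day 1, 2582 and 2093 on day 6 and 7425 and 8371 on day 20 (log2 difference -1.85, SE 0.12, adjusted p = 5.45e-06, edgeR), and Mobp, another cytosolic one, fell 2.36-fold. Of the membrane proteins, Mal, of the same sheath, was at 432 and 367 CPM on day 1, 1015 and 806 on day 6 and 423 and 417 on day 20 (log2 difference 1.15, SE 0.10, adjusted p = 3.61e-05, edgeR). Pdgfra, a receptor of oligodendrocyte precursors, rose 3.47-fold. Astrocyte markers were higher in 8 and lower in 2 of 20 cases (median 0.06), the glutamate transporter gene Slc1a2 rising 2.00-fold and the water channel gene Aqp4 1.95-fold. Gfap, the cytosolic filament of astrocytes, was at 637 and 591 CPM on day 1, 652 and 514 on day 6 and 598 and 617 on day 20 (log2 difference -0.07, SE 0.10, adjusted p = 0.615, edgeR), with overlapping groups. It passed as lower without the C library of day 6 (adjusted p = 0.00639) and with library totals alone (log2 difference -0.59).

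Interneuron markers were higher in 9 and lower in 3 of 17 cases (median 0.83), 8 and 1 of 11 with a membrane or secreted term and 1 and 2 of the other 6, with the receptor Erbb4 at 170.3 and 174 CPM on day 1, 872 and 809.9 on day 6 and 190.0 and 170.5 on day 20, the secreted Reln up 3.64-fold and the cytosolic calcium buffer Pvalb down 2.38-fold. CA1 markers were higher in 7 and lower in 2 of 10 (median 0.93), with 7 and 0 of 7 among those with a membrane or secreted term. CA2 and CA3 markers were higher in 4 and lower in 3 of 10 (median 0.21, and 0.46 without the C library of day 6), with 3 and 0 of 4 among those with such a term. Dentate granule markers were higher in 2 and lower in 2 of 11 (18.2% each, median 0.16, and -0.43 without the L library of day 6), with 2 and 1 of 5 among those with such a term. Of the dentate markers, the secreted C1ql3 rose 3.63-fold and the cytosolic Calb1 fell 1.80-fold. Markers of neighbouring regions were higher in 3 and lower in 1 of 10 cases (30% higher, median 0.06, and 0.30 without the L library of day 6), among them the vesicular transporter gene Slc17a6 at 27.6 and 25.3 CPM on day 1, 152 and 124 on day 6 and 34.7 and 26.9 on day 20 (log2 difference 2.27, SE 0.14, adjusted p = 3.53e-06, edgeR). Choroid plexus markers were higher in 5 and lower in 1 of 18 cases (27.8% higher, median 0.20), with the clotting factor F5 up 2.87-fold, and meningeal markers in 3 and 2 of 16 (18.8% higher, median 0.37, and 0.03 without the C library of day 6), with Dcn up 2.88-fold and Col1a1 down 2.11-fold. The shares higher of the dentate, neighbouring region, choroid plexus and meningeal lists are near the 22.5% of all genes. Ttr was at 3739.8 and 4237 CPM on day 1, 4056 and 3234 on day 6 and 4579 and 3615 on day 20 (log2 difference -0.15, SE 0.12, adjusted p = 0.365, edgeR), with overlapping groups, and it passed as lower without the C library of day 6 (adjusted p = 0.0147) and with library totals alone (log2 difference -0.67). With library totals alone the medians of the astrocyte, oligodendrocyte, choroid plexus, meningeal, dentate, CA2 and CA3 and neighbouring region lists were negative, and without the C library of day 6 those of the astrocyte, oligodendrocyte and choroid plexus lists were too.

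Transcripts of the liver were present in the day 6 pair. Alb, serum albumin (ENSMUSG00000029368, chromosome 5, 90460897 to 90476602, plus strand), had 0 and 1 counts on day 1, 1575 and 215 on day 6 and 1 and 0 on day 20. The ratio of day 6 to days 1 and 20 was 2235 (exact 95% interval 618 to 18467, counting error only, and too narrow where read pairs were counted as 2). Apob, which carries lipids in the blood, had 0 and 0 counts on day 1, 682 and 151 on day 6 and 3 and 0 on day 20, a ratio of 693 (236 to 3369). Fga, a fibrinogen chain, had 1 and 0 counts on day 1, 439 and 120 on day 6 and 1 and 1 on day 20, and Cps1, of the urea cycle, had 3 and 2 counts on day 1, 33 and 52 on day 6 and 1 and 1 on day 20. For Alb, Apob and Fga the C library of day 6 held more than the L library, and for Cps1 the L library did. Of 16 liver genes listed, 7 were tested. Alb, Apob, Fga and Cps1 passed the filter on low counts only through day 6, so calls and a median over the list are not given. The summed level of all 16 listed genes, each counted just where a day's table lists it, was 3387 to 4501 CPM on day 6. On the other days it was 3668 to 4630, Ttr of the choroid plexus making up most of it. In the homogenates Alb had 21975 counts in 1 L library and 0 in the other 5. The part of this RNA in the other differences was not tested.

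Pituitary transcripts varied between libraries. Gh, growth hormone, was at 99.1 and 47.5 CPM on day 1, 7.13 and 11.8 on day 6 and 35.7 and 401 on day 20 (log2 difference -3.95, SE 1.14, adjusted p = 0.0225, edgeR), with most in the L library of day 20. Its call ended without the C library of day 6 (adjusted p = 0.321) and without the L library (adjusted p = 0.258). Of 5 pituitary genes tested 1 was higher, Chga at 103 and 95.1 CPM on day 1, 263 and 187 on day 6 and 93.8 and 95.2 on day 20, and 2 were lower, Gh and Pomc. Haemoglobin genes were low throughout, with Hbb-bs at 67.9 and 57.1 CPM on day 1, 32.8 and 25.6 on day 6 and 46.0 and 54.7 on day 20, and of 5 red cell genes 2 were lower and 0 higher.

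Some genes could not be compared because the day 6 table does not list them. It lists 14552 genes, and the tables of days 1 and 20 list 17130. Of 2741 genes that are missing from it, 169 had at least 1 CPM on days 1 and 20 and 4 at least 5 CPM. These were Ly6c1, an endothelial surface protein with 338 and 334 counts on day 1 and 276 and 313 on day 20, the smooth muscle myosin Myh11, the endothelial nitric oxide synthase Nos3, and Csrnp1. The table lists 163 genes that those of days 1 and 20 do not, and 17 of them had more than 3 counts in both day 6 libraries.

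Transcript properties that the comparison did not use also ran with the difference. From the lowest to the highest decile of transcript GC content the median fell from 0.31 (33.4% to 42.0% GC) to -0.65 (58.3% to 72.3% GC). The highest minus the lowest decile stood at -0.95 and -0.96 in the C and the L library of day 6, at 0.15 and -0.04 on day 1 and at 0.01 and -0.12 on day 20. The day 6 homogenates, set against the same 4 synapse libraries, ran the same way, at 0.48 in the lowest and -0.56 in the highest decile, beside 0.27 and -0.75 for the day 6 synapse libraries on the same measure. Genes with 13 or more such codons in their window and those with up to 11 had median GC contents of 50.2% and 50.4%. Within 4 equal bins of GC content, from low to high, genes with 13 or more stood at 1.28, 1.05, 0.79 and 0.29, and genes with up to 11 at 0.11, -0.08, -0.30 and -0.66. Over the deciles of transcript length the median rose from -0.19 in the shortest to 0.05 in the ninth. Within 4 equal bins of length, genes with 13 or more stood at 0.55, 0.70, 0.90 and 1.08, and those with up to 11 at -0.28, -0.22, -0.19 and -0.08. Offsets fitted to the GC content of each library left 2924 genes higher and 2651 lower, of which 2525 and 2035 were among those called before. The membrane median was then 0.92 and that of the postsynaptic density list -0.14.

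**Figure D5:**
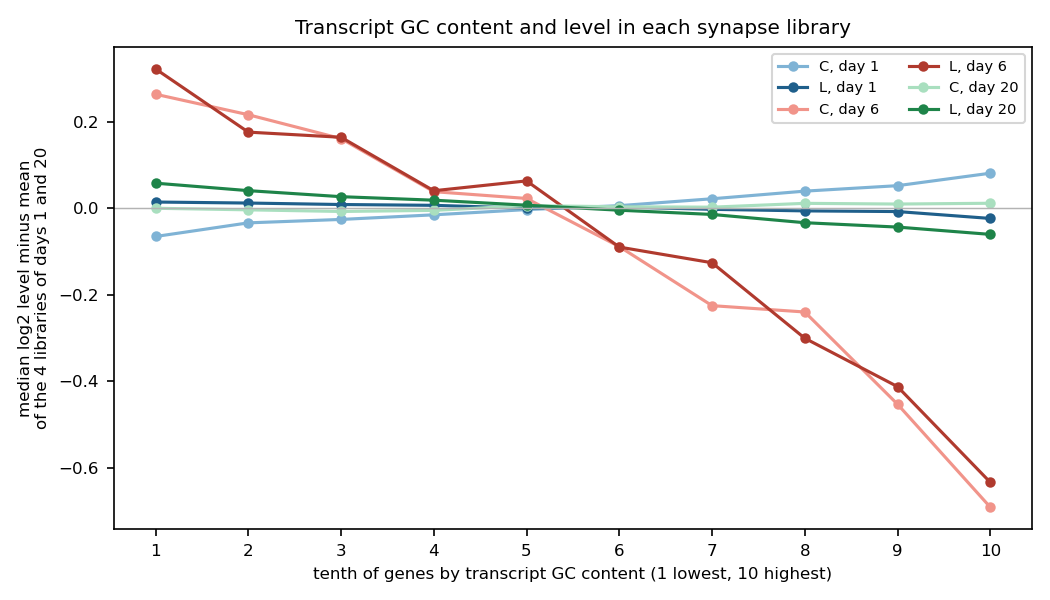
Median log2 level relative to the mean of the 4 libraries of days 1 and 20 (y axis) for deciles of the genes by transcript GC content (x axis, 1 lowest), 1 line per synapse library. The 2 day 6 lines fall from about 0.3 to below -0.6, and the lines of days 1 and 20 stay within 0.1 of 0.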

How the data were processed

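The authors deposited read counts without normalization, in 1 table per synapse pair and 1 for the homogenates. Libraries were strand-specific and made after removal of ribosomal RNA, per the labels' protocols. The build was mm10, and the tools named are edgeR, HTSeq 0.9.1, HISAT2 2.0.4 and cutadapt 1.9.3, per the submitters' processing notes. Which annotation release, strand setting or gene filter was used is not given in the sources used here. No row lacked a gene.

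The 14389 genes in all 3 synapse tables were joined by gene identifier, and 13363 passed filterByExpr. The main test was edgeR 4.0.16 (R 4.3.3, TMM, robust quasi-likelihood), with DESeq2 1.42.0 and voom of limma 3.58.1 as alternatives. In simulated counts edgeR called 65 of 100 2-fold changes, 100 of 100 4-fold changes and 8 of 12945 unchanged genes. All simulated libraries had the same spread, unlike the wider day 6 pair here, so false calls under unequal spread were not tested. A log2 difference is day 6 minus days 1 and 20, and SE is its standard error. A count of 0 allows up to 3 counts, 0.203 to 0.311 TMM-scaled CPM per synapse library (counting error only, as no molecular identifiers are named, and higher where read pairs were counted as 2). Gene coordinates, lengths, GC content and sequences are those of GENCODE M21. Named genes were, among those called with at least 10 CPM and no overlap, the 12 highest and lowest and the 8 smallest p in each direction, and in each list up to 4 members with the smallest p. Other list members were named after their values were seen, and some genes that the rule selects are not reported here. The members and the 43 lists were chosen with earlier results of these data known. The number of samples per group is 2 and 4.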

Additional observations from a re-analysis of the deposited data

Results flagged for a closer look

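In the 4 libraries of days 1 and 20, 1 library stood apart from the other 3 for 6 of 173 named genes, where chance flags about 1 in 20. The C library of day 1 was the highest for Cpne6 (229 CPM), Cox8a (244 CPM) and Chga (103 CPM). The C library of day 20 was the highest for Apob (0.233 CPM, from 3 counts), Pcdh19 (236 CPM) and Erbb4 (189.99 CPM). For each gene the day 6 libraries lay outside the range of the 4.

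In genes that the day 6 table lists and the tables of days 1 and 20 do not, which no comparison used, 3 had at least 50 counts in both day 6 libraries. These were Mmp12, a macrophage elastase, with 662 counts in C and 181 in L, and the liver genes Apoa1 (444 and 122) and Fabp1 (94 and 106).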

How the results depend on the processing

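The median differences of the membrane, mitochondrial and other classes kept their sign under all alternatives run, and the secreted median turned to -0.06 with library totals alone. Calls totalled 5750 as reported, 2941 against day 1 only and 2896 against day 20 only, with 1851 and 1860 higher and 1090 and 1036 lower. Both refits use fewer samples. Leaving out 1 library gave from 4566 to 9369 calls, 2518 to 4397 higher and 2025 to 4972 lower, the largest without the L library of day 6. With library totals alone 1722 genes were higher and 5966 lower. Other scalings, filters, tools and the arm as a term gave 2626 to 3208 higher and 2446 to 3240 lower. Of the 43 lists, 22 had more rises than falls, and 14 with library totals alone. List medians changed sign for 10 lists with library totals alone, 3 with upper quartile scaling, 2 with GC offsets (chosen after seeing the data; for 1 of them, the mitochondrially encoded mRNAs, 1 of 5 members had a GC value), 4 without the C library and 2 without the L library of day 6, 1 among genes averaging 10 CPM or more and 0 with DESeq2 or voom. Day 20 against day 1 gave 0 calls in each of the 6 alternative fits run. The spread of the day 6 pair was 0.298, and 0.193 over genes with at least 50 CPM, in both cases the widest of the 3 pairs.

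Signs that turned in single genes, as log2 differences, were those of mt-Co3 (-0.10), Camk2a (-0.36), Dlg2 (-0.26), Cnksr2 (-0.15), Homer2 (-0.11) and Vgf (-0.23) with library totals alone, and of Grin2c (0.028) with GC offsets. voom did not call Alb (adjusted p = 0.160) and Gh (0.340), and DESeq2 did not call Tek (0.137). The cause of these changes was not tested. No paired analysis was possible because the synapse libraries share no replicate numbers beyond 1. The arm as a term, which pairs C with C and L with L over the days, gave 2932 higher and 2805 lower genes. With 1 library per arm and day, the spread behind each p mixes arm, day and preparation, and genes under about 5 CPM on day 6 are limited by depth and by the zeros of that pair.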
